A study of Mus musculus with 2 samples.

Results

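A set of 9 enzymes was followed in stimulated CD8 T cells that lack diacylglycerol kinase ζ (DGKζ), against wild-type cells. Apart from Pck2, a phosphoenolpyruvate carboxykinase, these enzymes make or interconvert asparagine, alanine, proline, glutamate and the branched-chain amino acids. The 9 are Asns, Gpt2, Pck2, Got1, Got2, Pycr1, Aldh18a1, Glud1 and Bcat1, out of the 24013 genes in the deposited table. They were chosen by name with the measured ratios of these same libraries already known, so their values are a description, and the transcript row that stands for a gene was selected on the highest mean of both libraries. Naive CD8 T cells were isolated from C57BL/6 spleens and stimulated for 24 h on plate-bound anti-CD3 and anti-CD28. One library came from DGKζ-/- mice aged 6 weeks and 1 library from wild-type mice aged 7 weeks. The labels do not say how many animals went into a library.

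The amino acids made by the enzymes other than Pck2 are linked through glutamate. Transaminases move the amino group of glutamate onto pyruvate or oxaloacetate to give alanine or aspartate, asparagine synthetase turns aspartate into asparagine with glutamine as the nitrogen donor, and proline is built from the carbon skeleton of glutamate. Activated T cells draw on these routes for protein synthesis and for carbon entry into the mitochondrial tricarboxylic acid cycle. In mammalian cells several of the genes are known targets of ATF4, the transcription factor of the amino acid stress response, which binds composite DNA elements together with C/EBP-family partners. DGKζ itself removes diacylglycerol, the lipid messenger downstream of the T cell receptor.

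Every value below is from a single library of each genotype, so replicate error is unknown and no p-value was computed. The deficient library held 13464169 and the wild-type library 37211969 reads with 1 row per gene. Dgkz was read at 2591 normalized counts in the deficient library and 6714 in the wild-type library, 2.59-fold lower (95% counting interval 2.46 to 2.74). The CD8 T cell markers Cd8a, Cd8b1, Cd3e and Cd3d summed to 19469 and 26494 normalized counts in the deficient and the wild-type library. For 4 of these 4 genes the counting interval of the ratio lay below 1. Summed normalized counts of markers of other cells in the deficient and the wild-type library were 2065 against 2738 for B cells, 101 against 228 for CD4 T cells, 80.6 against 134 for myeloid cells, 134 against 404 for NK cells and 3.43 against 29.2 for erythroid cells. The counting interval of the ratio lay below 1 for 6 of 7 B cell genes, 1 of 2 CD4 T cell genes, 1 of 4 myeloid genes, 1 of 3 NK cell genes and 1 of 3 erythroid genes, and above 1 for 0 of them. The NK cell sums came almost wholly from 1 gene, Klrd1, at 134 normalized counts in the deficient and 395 in the wild-type library. The NK cell genes Ncr1 and Klrb1c were at 0 in the deficient library and had 7 and 9 reads in the wild-type library, and neither difference was resolved at this depth. The libraries also differed in Xist, at 9206 normalized counts in the deficient and 14.0 in the wild-type library, and in 4 Y-linked genes, at 0 in the deficient library and between 921 and 2192 in the wild-type library. Genotype, age and these sex-linked differences cannot be told apart, and the part of other cell types in the values below was not tested. In bulk RNA, fewer cells that express a gene and less RNA per cell cannot be told apart either.

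The promoters of 4 of the 9 genes hold the letters of the composite ATF4 and C/EBP element, written here as TGATGNAA and searched on both strands. The RefSeq windows used cover the 250 bases before the annotated start on build GRCm38.p6, and all 9 genes had one. The 5 windows below are shown because they belong to the 3 genes with the largest differences between the libraries and to the other genes with a match. Capitals mark the match, and Gpt2 has none in this window.
Asns, chr6:7693210-7693459, minus strand: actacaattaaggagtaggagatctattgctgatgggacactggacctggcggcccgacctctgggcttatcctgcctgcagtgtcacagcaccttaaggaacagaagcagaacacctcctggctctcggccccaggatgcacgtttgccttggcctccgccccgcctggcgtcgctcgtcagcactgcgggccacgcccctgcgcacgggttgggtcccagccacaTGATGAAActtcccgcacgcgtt
Pck2, chr14:55540016-55540265, plus strand: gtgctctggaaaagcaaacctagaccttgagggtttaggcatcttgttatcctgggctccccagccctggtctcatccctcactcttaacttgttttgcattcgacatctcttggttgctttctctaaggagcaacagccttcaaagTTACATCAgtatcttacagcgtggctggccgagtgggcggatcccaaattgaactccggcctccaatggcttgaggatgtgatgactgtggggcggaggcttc
Pycr1, chr11:120643749-120643998, minus strand: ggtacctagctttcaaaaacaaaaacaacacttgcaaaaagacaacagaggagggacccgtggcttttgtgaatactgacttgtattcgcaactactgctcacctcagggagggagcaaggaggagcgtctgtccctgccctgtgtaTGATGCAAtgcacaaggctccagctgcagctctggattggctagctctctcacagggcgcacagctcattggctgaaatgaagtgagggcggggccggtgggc
Got1, chr19:43524606-43524855, minus strand: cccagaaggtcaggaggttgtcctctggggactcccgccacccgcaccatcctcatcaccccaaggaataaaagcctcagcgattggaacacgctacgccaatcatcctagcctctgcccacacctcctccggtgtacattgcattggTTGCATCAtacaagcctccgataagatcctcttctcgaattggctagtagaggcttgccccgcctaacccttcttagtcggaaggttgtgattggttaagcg
Gpt2, chr8:85492326-85492575, plus strand: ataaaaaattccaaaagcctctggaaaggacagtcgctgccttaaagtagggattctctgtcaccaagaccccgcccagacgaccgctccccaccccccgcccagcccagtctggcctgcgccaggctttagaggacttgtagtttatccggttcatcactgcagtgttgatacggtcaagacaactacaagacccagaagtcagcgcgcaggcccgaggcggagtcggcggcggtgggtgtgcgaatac

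The match lay 23 to 16 bases before the start in Asns, 103 to 96 in Pck2, 103 to 96 in Pycr1 and 102 to 95 in Got1. In Asns and Pycr1 it read in the direction of the gene (TGATGAAA and TGATGCAA), and in Pck2 and Got1 on the other strand. Across all 27025 genes with a window, 3.91% held the element. Of the listed genes with a window, it was present in 0 of 25 other genes of the same pathways, 0 of 11 serine and one-carbon genes, 2 of 10 amino acid transporter genes (Slc7a7 and Slc7a11) and 4 of 18 regulators of the ATF4 branch (Atf3, Chac1, Vldlr and Nupr1). The E-box CACGTG, the site of MYC and related factors, was found in 1 of the 9 genes, Aldh18a1, against 6.86% of all genes. A match describes the letters only, and binding was not measured.

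The 9 enzymes fell into a group of 3 with large differences and a group of 6 with smaller ones. Normalized counts are compared below as their ratio, with an exact 95% counting interval, and as a log2 ratio, for which 10 normalized counts were added to the value of each library. Genes count as at least 2-fold different from a log2 ratio of 1 upward or -1 downward. The log2 ratios of all 9 lay above 0. Their median was 0.75, beside 0.055 over the 10518 genes that reached an expression minimum of 50 normalized counts on average. Past that limit, 4 of the 9 enzymes were higher and 0 lower, where 1.30% of all compared genes were higher and 1.29% lower by the same limit. Since the genes were picked with these ratios known, nothing is read from that contrast. With both libraries scaled to equal totals, 115 of all compared genes were higher and 179 lower, against 137 and 136 with the authors' size factors, and the same count of 4 enzymes was at least 2-fold higher.

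**Figure D1:**
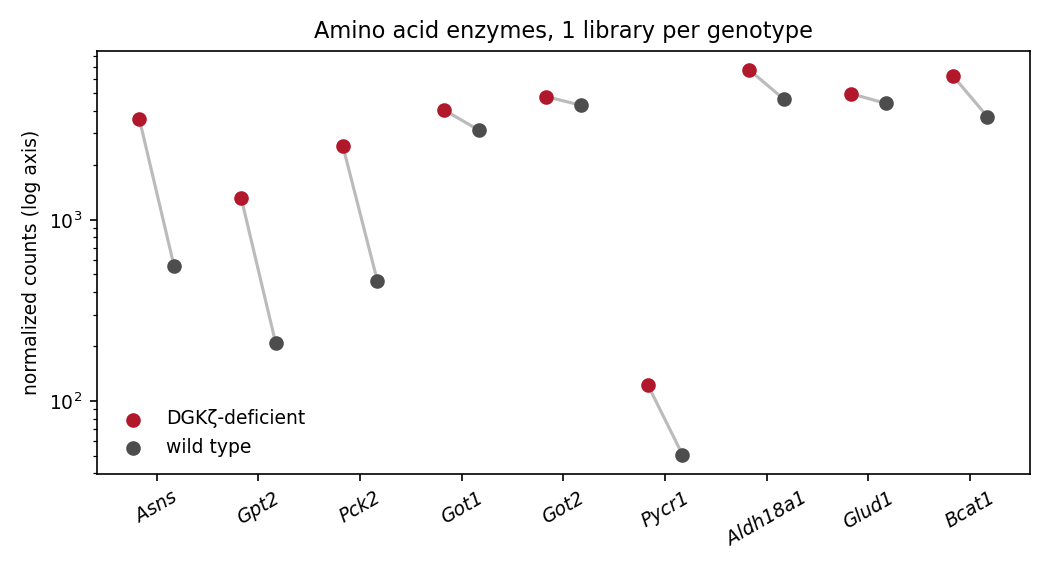
Normalized counts (log axis) of the 9 enzymes in the DGKζ-deficient library (red, left) and the wild-type library (grey, right), joined by a line for each gene. Asns, Gpt2 and Pck2 had the steepest lines, and Pycr1 was the lowest gene in both libraries, at 123 and 50.7.

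Asparagine synthetase, Asns, uses aspartate and glutamine to make asparagine and had the largest difference of the 9. It was read at 3581 normalized counts in the deficient library and 558 in the wild-type library, 6.42-fold higher (5.94 to 6.93). It stood at rank 11 of the 10518 compared genes by log2 ratio. Asnsd1, a gene named for its asparagine synthetase-like domain, was read at 3156 and 2650 normalized counts in the deficient and the wild-type library, a ratio of 1.19 (1.13 to 1.26). The asparaginase gene Asrgl1 had a ratio of 1.16 (1.04 to 1.30), and Aspg, another asparaginase gene, had 0 reads in the deficient and 1 in the wild-type library.

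Gpt2, the mitochondrial alanine aminotransferase, makes alanine and α-ketoglutarate from pyruvate and glutamate. It was read at 1326 normalized counts in the deficient library and 209 in the wild-type library, 6.33-fold higher (5.58 to 7.20). Its cytosolic isozyme Gpt was read at 60.0 and 56.6 normalized counts in these libraries, a ratio of 1.06 (0.700 to 1.58), which rests on 35 and 97 reads. Per kilobase of transcript, Gpt2 stood at 364 in the deficient and 57.5 in the wild-type library, and Gpt at 33.5 and 31.6. Gpt2 thus made up 91.6% of the summed level of both isozymes in the deficient library and 64.6% in the wild-type library.

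Pck2, the mitochondrial phosphoenolpyruvate carboxykinase, turns oxaloacetate into phosphoenolpyruvate. It was read at 2564 normalized counts in the deficient library and 461 in the wild-type library, 5.57-fold higher (5.10 to 6.07). The cytosolic isozyme Pck1, the gluconeogenic enzyme of liver and kidney, had 0 reads in the deficient and 7 in the wild-type library, so its difference was not resolved at this depth. The counting interval of Pck2 overlapped those of Asns and Gpt2, and the order of the 3 genes was not tested. Together these 3 genes gave 48.4% of the difference in summed normalized counts over the 9 enzymes. They held 21.8% of that sum in the deficient and 5.74% in the wild-type library. Their summed normalized counts were 7470 and 1228 in the deficient and the wild-type library, a ratio of 6.08. The other 6 enzymes, Pycr1 among them, summed to 26819 and 20163, a ratio of 1.33. Because the 3 genes were grouped by their log2 ratios of 2 or more, this contrast follows from the grouping and nothing is read from it.

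**Figure D2:**
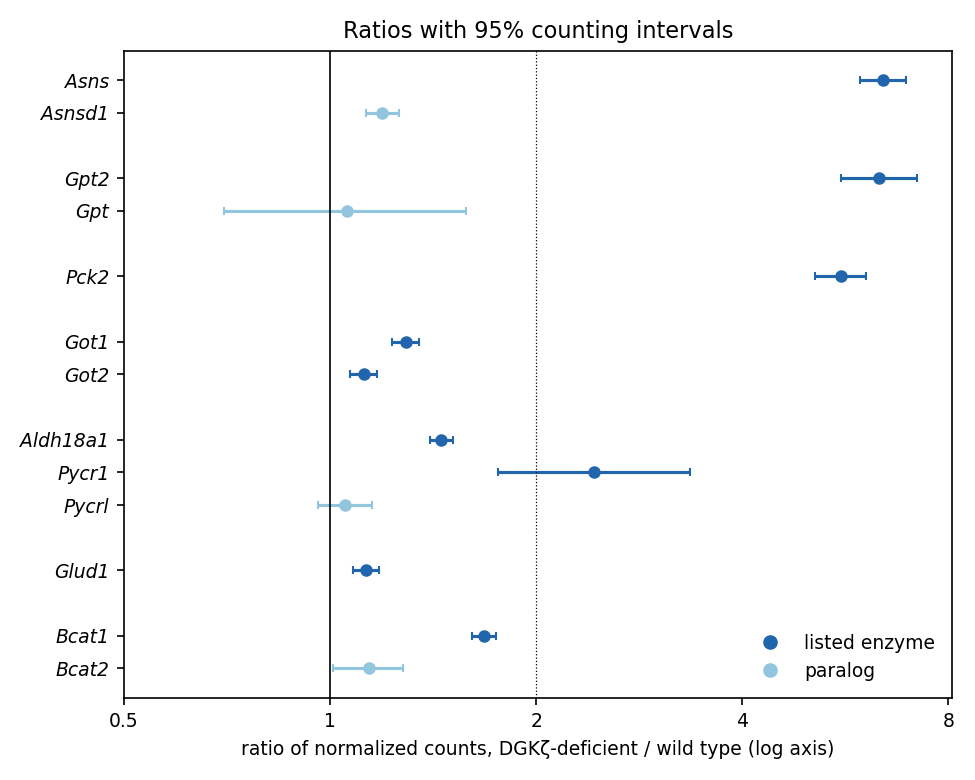
Ratio of normalized counts, DGKζ-deficient over wild type (log axis), for the 9 enzymes (dark blue) and 4 of their expressed paralogs (light blue), with exact 95% counting intervals. The solid line marks a ratio of 1 and the dotted line a ratio of 2. Gpt2 and Bcat1 lie to the right of their isozymes Gpt and Bcat2.

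Proline is made from glutamate by the product of Aldh18a1, which catalyses the first steps, and then by pyrroline-5-carboxylate reductases. Aldh18a1 was read at 6702 normalized counts in the deficient library and 4615 in the wild-type library, a ratio of 1.45 (1.40 to 1.51), and its second transcript row held the same values. Pycr1, a mitochondrial reductase, had 72 reads or 123 normalized counts in the deficient library, against 87 reads or 50.7 normalized counts in the wild-type library, a ratio of 2.43 (1.76 to 3.36). It was the fourth gene at least 2-fold higher and the lowest of the 9 in level. Pycrl, another reductase of the family, was read at 1104 normalized counts in the deficient library and 1051 in the wild-type library, a ratio of 1.05 (0.959 to 1.15). Per kilobase, Pycr1 stood at 42.4 and 17.4 in the deficient and the wild-type library (66.4 and 27.3 with the length of its second longest coding transcript), and Pycrl at 825 and 785. Oat, which makes the same intermediate from ornithine, had a ratio of 1.26 (1.19 to 1.32), and P4ha1, a prolyl hydroxylase subunit, one of 1.41 (1.31 to 1.51). The proline-degrading enzymes Prodh and Aldh4a1 had ratios of 0.934 (0.754 to 1.15) and 0.870 (0.724 to 1.04), and both intervals include 1.

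The aspartate aminotransferases Got1 (cytosolic) and Got2 (mitochondrial) exchange amino groups between glutamate and aspartate and form part of the malate-aspartate shuttle. Got1 was read at 4022 normalized counts in the deficient library and 3117 in the wild-type library, a ratio of 1.29 (1.23 to 1.35). Got2 was read at 4781 and 4285 normalized counts, a ratio of 1.12 (1.07 to 1.17), and this was the smallest difference among the 9. The intervals of the isozymes do not overlap. Per kilobase, Got1 made up 50.8% of their summed level in the deficient and 47.2% in the wild-type library. The malate dehydrogenases of the shuttle had ratios of 1.06 (1.01 to 1.10) for Mdh1 and 1.23 (1.19 to 1.28) for Mdh2, and the carriers 0.925 (0.854 to 1.001) for Slc25a12, 0.970 (0.899 to 1.05) for Slc25a13 and 1.21 (1.12 to 1.30) for Slc25a11. Got1l1, a relative of Got1, had 0 reads in the deficient and 5 in the wild-type library.

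Glutamate dehydrogenase, Glud1, converts glutamate to α-ketoglutarate and ammonia. It was read at 4955 normalized counts in the deficient library and 4388 in the wild-type library, a ratio of 1.13 (1.08 to 1.18), an interval that overlaps that of Got2. Both genes have processed pseudogenes (Got2-ps1 and Glud-ps), and reads shared with these copies make their values uncertain. Of the genes that make or use glutamine, Gls2 (liver-type glutaminase) had a ratio of 1.47 (1.23 to 1.77) and Glul (glutamine synthetase) one of 1.19 (1.12 to 1.27). Gls2 stood at 309 and 209 normalized counts in the deficient and the wild-type library. The mitochondrial glutamate carrier gene Slc25a22 had a ratio of 0.841 (0.736 to 0.958) and the most negative log2 ratio of the compared pathway genes, -0.25.

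Bcat1, the cytosolic branched-chain aminotransferase, transfers the amino group of leucine, isoleucine or valine to α-ketoglutarate and so forms glutamate. It was read at 6236 normalized counts in the deficient library and 3707 in the wild-type library, a ratio of 1.68 (1.61 to 1.75) and a log2 ratio of 0.75. Its other transcript row gave 6117 and 3583 normalized counts and a log2 ratio of 0.77. The mitochondrial isozyme Bcat2 was read at 681 and 596 normalized counts, a ratio of 1.14 (1.01 to 1.28). Downstream of both, Bckdhb, a subunit of the branched-chain ketoacid dehydrogenase, was read at 317 and 129 normalized counts in the deficient and the wild-type library, 2.46-fold higher (2.01 to 3.01). The partner subunit Bckdha had a ratio of 0.855 (0.729 to 0.9996), Dbt, the transacylase subunit, one of 1.02 (0.906 to 1.14), and Bckdk, the kinase that inactivates the complex, one of 1.11 (1.03 to 1.19).

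**Figure D3:**
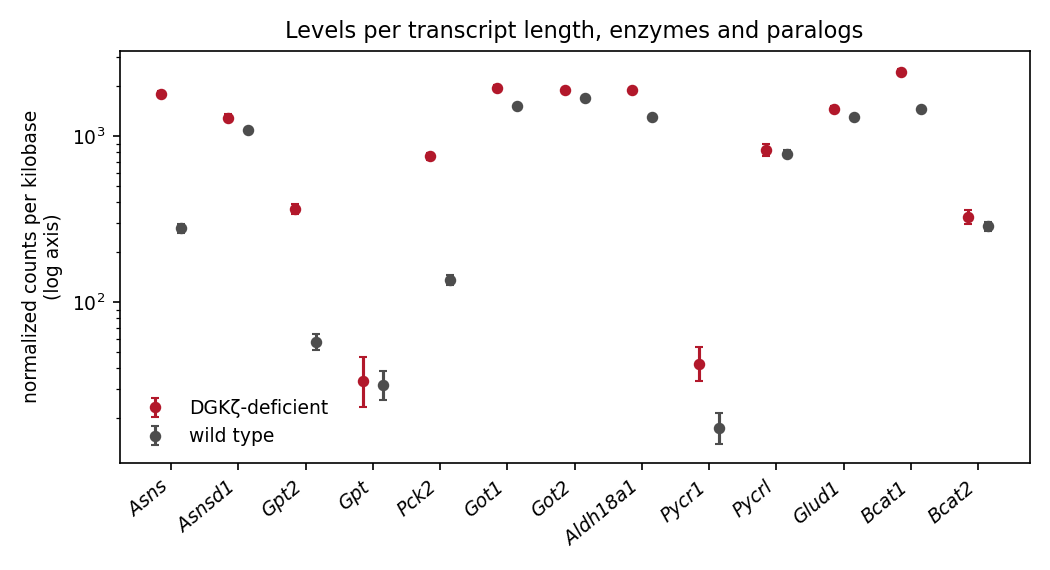
Normalized counts per kilobase of transcript (log axis) for the 9 enzymes and 4 of their paralogs in the DGKζ-deficient (red, left) and wild-type (grey, right) libraries, with exact Poisson 95% intervals. Asns stood at 1790 in the deficient library and 279 in the wild-type library, against 1462 and 1295 for Glud1. The level of Bcat1 depends on the transcript length used.

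Compared per kilobase of transcript, the enzymes ranked differently in the libraries. In the deficient library Got1 stood at 1954 (1876 to 2035), Aldh18a1 at 1900 (1841 to 1961), Got2 at 1890 (1820 to 1961), Asns at 1790 (1714 to 1868), Glud1 at 1462 (1409 to 1516), Pck2 at 754 (716 to 793), Gpt2 at 364 (339 to 391) and Pycr1 at 42.4 (33.2 to 53.4). In the wild-type library the order was Got2 at 1694 (1655 to 1733), Got1 at 1514 (1474 to 1556), Aldh18a1 at 1308 (1280 to 1338), Glud1 at 1295 (1265 to 1324), Asns at 279 (261 to 297), Pck2 at 135 (126 to 145), Gpt2 at 57.5 (51.7 to 63.8) and Pycr1 at 17.4 (13.9 to 21.5). Per kilobase, Asns was thus above Glud1 in the deficient library and below it in the wild-type library. In normalized counts Glud1 was above Asns in both libraries, at 4955 against 3581 in the deficient and 4388 against 558 in the wild-type library. The crossing thus depends on the transcript lengths used, and other lengths were not tried for either gene. Neighbours whose counting intervals overlap are Got1, Aldh18a1 and Got2 in the deficient library, where the interval of Asns also overlaps those of Aldh18a1 and Got2, and Aldh18a1 and Glud1 in the wild-type library. Bcat1 was at 2440 and 1450 in the deficient and the wild-type library with the transcript of 2556 bases matched to its row, and at 796 and 473 with the transcript of 7833 bases matched to its other row, so its place in the order was not settled.

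**Figure D4:**
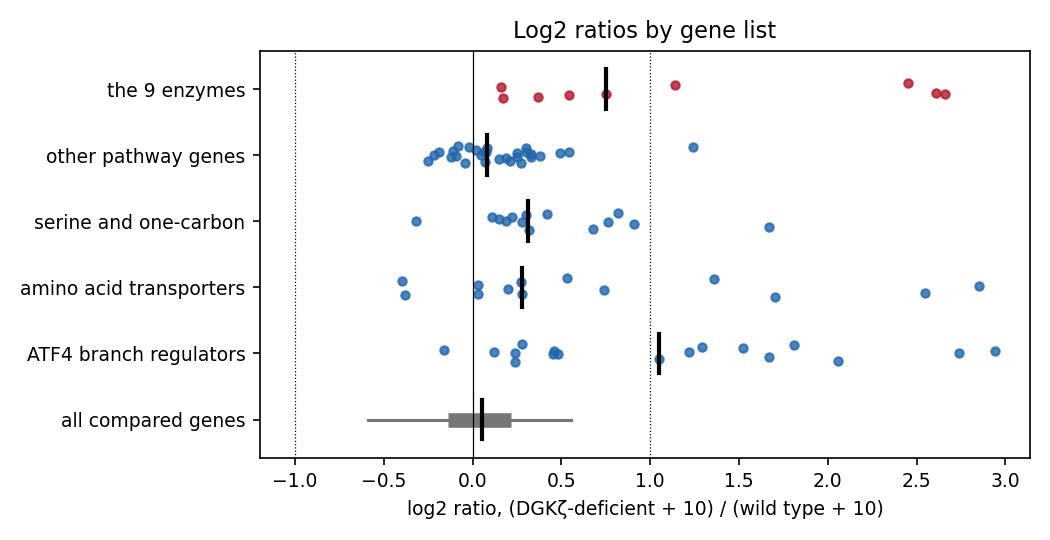
Log2 ratio, DGKζ-deficient over wild type, of each compared gene (points) in the 9 enzymes, the other genes of the same pathways and 3 related lists, with the median of each as a black bar. The lowest row shows all compared genes by their quartiles (thick) and the 5th to the 95th percentile (thin), and dotted lines mark log2 ratios of -1 and 1. The medians were 0.75 for the enzymes and 0.079 for the other pathway genes.

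Other genes of the same pathways, from a list of 36 of which 29 reached the expression minimum, had a median log2 ratio of 0.079, close to that of all compared genes. Of the 29, 20 were above 0 and 9 below. At least 2-fold higher was 1 (Bckdhb), and 0 were lower, beside 1.30% and 1.29% of all compared genes. Their log2 ratios ran between -0.25 and 1.24, and the largest after Bckdhb were 0.54 for Gls2 and 0.49 for P4ha1. Asl and Ass1, which make arginine from aspartate and citrulline, had ratios of 1.31 (1.16 to 1.47) and 0.988 (0.881 to 1.11).

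Among related lists, the regulators of the ATF4 branch had the highest median log2 ratio, 1.05. Of 17 compared genes, 9 were at least 2-fold higher and 0 lower, beside 1.30% and 1.29% of all compared genes. The 9 were Atf4, Atf3, Trib3, Chac1, Sesn2, Ddit4, Ppp1r15a, Cebpb and Eif4ebp1. With equal library totals, or with the median of all compared genes set at 0, the number was 8. Ppp1r15a, at a log2 ratio of 1.05 as reported, was then below 1. As reported, the other 8 compared regulators were Atf5, Ddit3, Eif2ak1, Eif2ak2, Eif2ak3, Eif2ak4, Ppp1r15b and Cebpg, with ratios between 0.892 and 1.41. Atf4 mRNA was read at 16042 normalized counts in the deficient library and 6564 in the wild-type library, 2.44-fold higher (2.38 to 2.51), a smaller ratio than those of Asns, Gpt2 and Pck2. Of 13 compared amino acid transporter genes, Slc1a4, Slc7a3, Slc7a11 and Slc6a9 were at least 2-fold higher and 0 were lower, with a median of 0.28. Slc1a4, which carries alanine, serine and cysteine, was read at 1168 and 449 normalized counts in the deficient and the wild-type library. The 14 serine and one-carbon genes had a median of 0.31, and Aldh1l2, a mitochondrial folate enzyme, was the 1 gene at least 2-fold higher, at 135 and 35.6 normalized counts. The lists were chosen with earlier results of these data known, so nothing is read from their counts beside the 1.30% of all compared genes. Differences between these lists and the 9 enzymes were not tested.

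**Figure D5:**
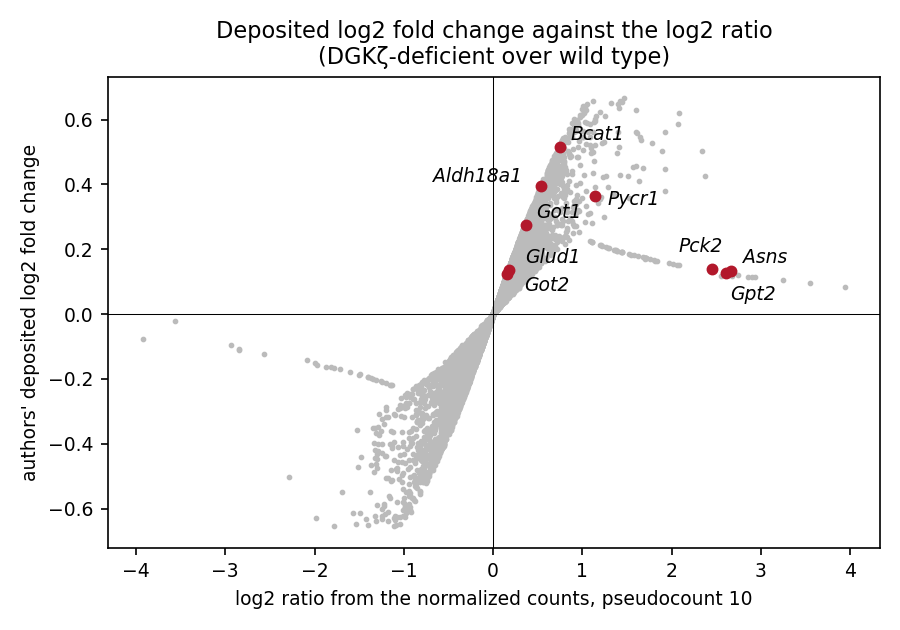
The log2 fold change in the authors' deposited table against the log2 ratio from the normalized counts, both DGKζ-deficient over wild type, for all compared genes (grey; 6 genes with a log2 ratio beyond ±4 are not drawn) and the 9 enzymes (red). Bcat1 is highest of the 9 on the deposited scale, at 0.52, while Asns, Gpt2 and Pck2 lie on a separate branch at 0.13 to 0.14.

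The authors' deposited table ordered the 9 enzymes differently from the normalized counts. In that table Bcat1 had the highest log2 fold change of the 9, 0.52, followed by Aldh18a1 at 0.39, Pycr1 at 0.36 and Got1 at 0.28. In the authors' deposited table Pck2, Asns and Gpt2 stood at 0.14, 0.13 and 0.13, beside 0.14 for Glud1 and 0.12 for Got2. All 30433 rows with a value in the authors' deposited table lie between -0.66 and 0.67, and the smallest adjusted p in it is 0.999, so none of the enzymes was called there. Of the 137 genes at least 2-fold higher by normalized counts, 54 had a value in the authors' deposited table below that of Got1, and so did 18 of the 22 with a log2 ratio of 2 or more. Over compared genes, the median in the authors' deposited table was 0.38 for log2 ratios from 0.5 to below 1, 0.43 from 1 to below 2 and 0.12 for 2 or more.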

How the data were processed

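Per the labels' protocols, the RNA was turned into libraries with a NEBNext Ultra kit (E7530), which does not mark strand. Exons of Pck2, Got2 and Bcat1 overlap those of the antisense genes Gm10876, Gm45760 and Gm26666 in GENCODE M21. The shared exon bases number 53 for Pck2, 434 for Got2 and 337 for Bcat1. Reads within these bases therefore cannot be told apart from those of the antisense genes. The submitters' processing notes name STAR version 2, DESeq and build mm9 without a role, and the counting program is not given in the sources used here.

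One table deposited by the authors holds normalized counts per RefSeq transcript, a signal equal to reads divided by a size factor. Whole reads were recovered for 100% of its values (relative tolerance 0.0001), with 1 read worth 1.71 normalized counts in the deficient and 0.583 in the wild-type library. A count test on these reads has no residual degrees of freedom. Another table deposited by the authors holds log2 fold changes, p-values and a test score, and the score was not used.

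Of 33018 rows, 1 with shifted values was left out, and for the 4911 genes with several rows the highest mean was used. The pseudocount of 10 understates differences of low genes. Ratios have exact Clopper-Pearson intervals and levels per kilobase exact Poisson intervals. Both cover counting error only and hold no replicate error, because each genotype has 1 library. They treat reads as independent, which PCR copies are not, so even the counting error may be understated. Lengths are of GENCODE M21 transcripts matched by accession, on GRCm38, and approximate those used by the authors. Promoters are from RefSeq. Python 3.11.15, scipy 1.17.1 and pandas 2.3.3 were used. The procedure was tested on simulated Poisson counts without variation between animals or PCR copies, so that test says nothing about replicate error.

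The enzymes and all lists were chosen with earlier results of these data known. Named are the enzymes, their paralogs, every listed gene at least 2-fold different and the 3 other pathway genes with the largest log2 ratios. Some genes that this rule names are not reported here. Further pathway genes and the sex-linked genes were picked after their values were seen. Alternatives were equal totals, recentring, a pseudocount of 1, the lowest transcript row, no expression minimum and a minimum mean of 200.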

Additional observations from a re-analysis of the deposited data

How the results depend on the processing

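All 9 enzymes kept a log2 ratio above 0 under equal totals, recentring on the median of all compared genes, a pseudocount of 1 and the transcript row with the lowest mean, and 4 were at least 2-fold higher under each. The lowest value was 0.068, for Got2 at equal totals, a setting that moved the median of all compared genes by -0.088. At equal totals Got1 stood at 0.28, Glud1 at 0.085, Aldh18a1 at 0.45 and Bcat1 at 0.66. These genes and Got2 were then outside the counting intervals of their ratios as reported. Pycr1 did not reach a minimum mean of 200, which left 3 of 8 enzymes at least 2-fold higher. At that minimum 0 serine and one-carbon genes were at least 2-fold higher, and 71 of all compared genes were at least 2-fold lower, against 375 with no expression minimum and 136 as reported, because other genes are compared. No paired analysis was possible because each genotype has 1 library, and for the same reason no library could be left out. Of the ATF4 branch regulators, 8 were at least 2-fold higher at equal totals and after recentring, against 9 as reported, and Ppp1r15a stood at 0.96 at equal totals. Among the 9 enzymes, Pycr1 had the fewest reads, and at this depth no difference was resolved for Gpt, Pck1, Got1l1 or Aspg.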
